A study of Mus musculus with 18 samples.

Results

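The genes described here are the numbered zinc finger protein genes Zfp1 to Zfp499 of the mouse. They were taken as every gene name on the array that reads Zfp followed only by a number, from Zfp1 up to Zfp499. This gave 170 of the 35527 gene names on the array and 265 of its 55681 probe names. RNA came from skeletal myofibers, the long multinucleated cells of muscle, of 3-month-old female CD1 mice, an outbred stock, which carried no transgene and received no treatment. Pools of 5 to 10 fibers were picked by hand from 3 hindlimb muscles, namely the soleus, the tibialis anterior (TA) and the extensor digitorum longus (EDL). They were lysed in detergent and spun, so that the pellet gave the nuclei and the supernatant the cytoplasm. The 3 muscles and 2 fractions made 6 groups of 3 single-colour arrays, 18 in all. By the labels, EDL and soleus pools of the same number came from the same mice, whereas TA cytoplasm 1 and TA cytoplasm 2 had a mouse in common. That mouse was also in EDL and soleus pools. TA cytoplasm 1 and TA cytoplasm 2 each held 1 further mouse, the one that gave the TA nuclei of the same number. TA cytoplasm 3 and TA nuclei 3 came from different mice, and the mouse of TA nuclei 3 was also in EDL and soleus pools. Every level below is log2 of the normalized spot intensity, and a difference is nuclei minus cytoplasm on that scale. Since each array was scaled as a whole, a difference is the place of a transcript relative to the other RNA of its fraction, not a number of molecules, and fewer cells of a type and less RNA per cell cannot be told apart.

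Most numbered zinc finger proteins carry rows of C2H2 fingers, short loops in which a pair of cysteines and a pair of histidines hold a zinc ion, joined by a conserved linker. Many also carry a KRAB domain, which recruits the corepressor Trim28 (KAP1) and, through it, the histone methyltransferase Setdb1, and so silences retrotransposons and imprinted regions. The number is only an order of naming. The set therefore also holds a CCCH protein that binds RNA (Zfp36) and a LIM protein of the actin cytoskeleton (Zfp185). Of the 170 names, 157 were found in the reference tables by accession, 10 by symbol, 2 by an older symbol and 1 (Zfp264) not at all. The current symbol differs for 12 of them, such as Zbtb14 for Zfp161 and Zbtb18 for Zfp238, and Zfp133 is annotated as a pseudogene, Zfp133-ps. A gene was represented by its probe with the highest mean level over all arrays. Levels of different probes were not compared with each other.

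The family can be seen in the probes themselves. Of the 170 probes, 6 read the linker TGEKP in frame, with no stop codon in the 60 bases, and another 9 read the start of a finger, a pair of cysteines followed by a phenylalanine and a leucine at their usual spacing. Such probes made up 8.82% of the members and 0.136% of all probes. The ones below are shown because they lie in the coding part of genes whose values are described further on, some higher and some lower in nuclei. Each is the 60-base array probe, 5′ to 3′ on the transcript strand, and the capitals mark the codons of the linker (Zfp72, both probes of Zfp81) or of the first to the second cysteine of a finger (all others).
Zfp58, minus strand of mm9 chr13:67592422-67592481: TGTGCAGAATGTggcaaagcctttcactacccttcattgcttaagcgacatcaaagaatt
Zfp383, plus strand of mm9 chr7:30700559-30700618: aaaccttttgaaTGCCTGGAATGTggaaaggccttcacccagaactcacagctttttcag
Zfp457, a second probe, minus strand of mm9 chr13:67393554-67393613: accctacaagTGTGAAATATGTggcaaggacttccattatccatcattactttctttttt
Zfp64, minus strand of mm9 chr2:168760900-168760959: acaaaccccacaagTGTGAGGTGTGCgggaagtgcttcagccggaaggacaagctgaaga
Zfp111, minus strand of mm9 chr7:24983342-24983401: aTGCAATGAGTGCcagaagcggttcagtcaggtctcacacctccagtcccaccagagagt
Zfp72, minus strand of mm9 chr13:74509332-74509391: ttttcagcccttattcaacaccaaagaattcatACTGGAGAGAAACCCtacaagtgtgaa
Zfp81, minus strand of mm9 chr17:33471496-33471555: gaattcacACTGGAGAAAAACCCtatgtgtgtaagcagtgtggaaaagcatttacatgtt
Zfp81, a second probe, minus strand of mm9 chr17:33471611-33471670: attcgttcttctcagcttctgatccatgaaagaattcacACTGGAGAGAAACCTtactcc

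Zinc finger transcripts were measured in most arrays, and more often in nuclei. Of the 170 genes, 94 (55.3%) were well above background on all 18 arrays, against 46.5% of all probes, and 18 genes were well above background on none. Each gene counts by its brightest probe, which for 74 genes was picked among several. The shares of all probes here and below involve no such pick, which favours detection of the genes. In EDL 125 genes were well above background on 3 of 3 nuclear arrays and 111 on 3 of 3 cytoplasmic arrays. In soleus these counts were 128 and 104, and in TA 116 and 106. Over all probes the same shares were 61.6% and 59.4% in EDL, 57.6% and 59.6% in TA, and 63.0% and 53.9% in soleus, so that in TA nuclei exceeded cytoplasm among the zinc finger genes and not over the array. No zinc finger probe was saturated on any array.

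A few genes gave a signal on all nuclear arrays of a muscle and on no cytoplasmic one. They were Zfp51, Zfp157, Zfp236 and Zfp319 in EDL (4 genes, 2.35%, where 0.946% of all probes did so), Zfp382 in soleus (1.08% of all probes) and Zfp236 in TA (0.413%). The opposite was seen for Zfp37 in TA (2.43% of all probes), and for no gene in EDL (2.26%) or soleus (1.53%). Of these genes, Zfp319 and Zfp382 were dim and well above background on no array of any muscle. Zfp319 read 2.96, 2.75 and 3.11 in EDL nuclei. Zfp382 read 3.51, 3.11 and 3.75 in soleus nuclei, and it also gave signal in the cytoplasm of EDL and TA. Zfp37 read 5.93, 5.19 and 6.61 in TA cytoplasm and gave no signal in TA nuclei. Its TA cytoplasm was at least 11.8-fold above TA nuclei, where "at least" sets the brighter mean against, on each array of the other group, the lowest signal well above background or the probe's own signal if that was higher. In soleus Zfp37 cytoplasm was at least 3.62-fold above nuclei, of which no array was well above background. In EDL its cytoplasmic arrays read 2.56, 5.16 and 4.81 and overlapped the nuclear ones at 4.35, 4.39 and 4.55. Zfp236 read 5.17, 5.09 and 5.24 in soleus nuclei, at least 5.87-fold above soleus cytoplasm, where no array was well above background. Of the 170 genes, 31 had too few values to be tested over the 3 muscles. Of these 31, 17 were well above background on no array.

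Nuclei and cytoplasm were then compared to ask in which fraction each transcript was the more abundant. Over the 3 muscles 139 genes were tested, of which 57 were higher and 37 lower in nuclei and 45 were not called (limma, adjusted p under 0.05 over all probes). The 57 are 41.0% of the genes tested, where 31.5% of all probes and 39.7% of the other genes with a RefSeq mRNA accession were called higher. The 37 are 26.6%, where 38.8% of all probes and 29.4% of these other mRNA genes were called lower. The zinc finger genes thus lay near other mRNA genes in both shares and apart from the array as a whole, which also carries many non-coding probes. Their median difference was 0.14, against -0.08 over all probes and 0.19 over other mRNA genes. The 139 genes named Zfp500 and above gave 39 higher and 36 lower of 113 tested, with a median of 0.02. The split of the calls depended on how arrays were scaled to each other, since 60.6% of calls were towards nuclei with quantile scaling, 49.5% with scaling to the 75th percentile and 87.6% with none. The median over all probes moved to -0.30 and 0.42 under the last 2 scalings, and the zinc finger median stood 0.22, 0.30 and 0.30 above that of all probes under the 3. With quantile scaling this gap was smaller after normexp background correction (0.10) and where signal well above background was required (0.11).

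**Figure D1:**
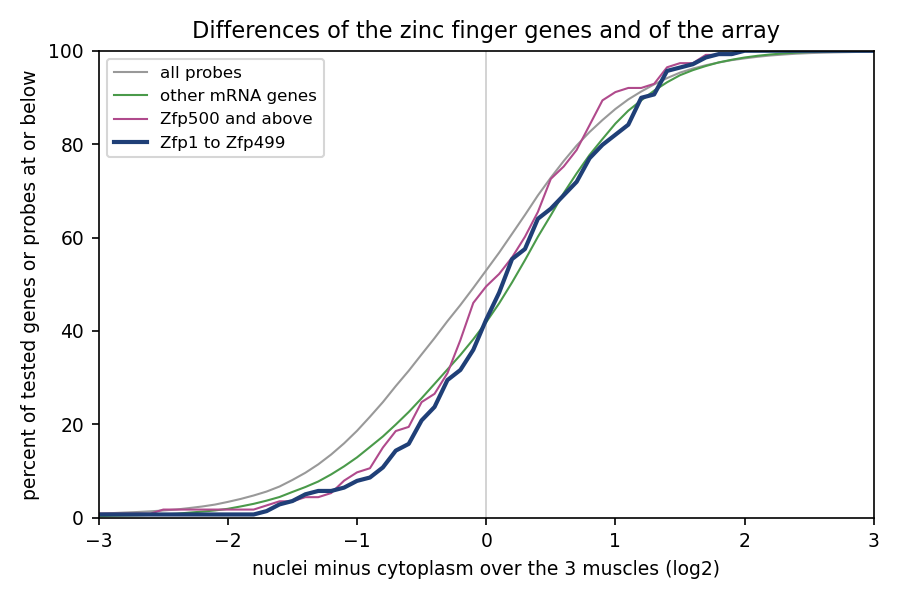
Percent of the genes or probes tested whose nuclei minus cytoplasm difference over the 3 muscles (horizontal axis, log2) lies at or below each value, for the 139 tested genes Zfp1 to Zfp499, Zfp500 and above, other mRNA genes and all probes. The curve of Zfp1 to Zfp499, with a median of 0.14, runs beside that of other mRNA genes, with 0.19, and to the right of all probes, with -0.08.

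In single muscles, 37 genes were higher and 27 lower in EDL nuclei (142 tested), against 20.6% and 27.3% of all probes. In soleus 38 were higher and 13 lower (140 tested), against 19.3% and 22.3%, and in TA 35 and 30 (142 tested), against 19.8% and 34.3%. Soleus had the fewest calls towards cytoplasm, as it also did over all probes and among other mRNA genes. For soleus the share called lower was 9.29% of the zinc finger genes, beside 16.9% of other mRNA genes. These shares stood at 19% beside 20.6% for EDL, and at 21.1% beside 25% for TA. Towards nuclei, soleus had 27.1% of the zinc finger genes beside 22.5% of other mRNA genes. For EDL this was 26.1% beside 25%, and for TA 24.6% beside 26.1%. The soleus counts also rested on single arrays. The genes called higher fell to 21 without soleus cytoplasm 3. Those called lower were 22 without soleus cytoplasm 2 and 8 without soleus nuclei 1. Among the 139 genes tested in each muscle, 20 (14.4%) were higher in all 3, where 10.9% of all probes and 14.1% of other mRNA genes were. In the same way 12 (8.63%) were lower in all 3, against 17.9% and 12.8%. One gene, Zfp451, was called in both directions. With values on all 18 arrays there were 119 genes, of which 22 had every nuclear array above every cytoplasmic array within each muscle (14.5% of all probes did) and 12 the reverse (21.4%).

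All cytoplasmic arrays of EDL and soleus were on one slide and all their nuclear arrays on another, so that fraction and slide cannot be told apart within these muscles. These slides were scanned on different days, so scan day cannot be told apart from fraction there either. The TA nuclei and TA cytoplasm 2 shared a slide. When TA nuclei were set against that array alone, 27 genes were higher and 25 lower, against 35 and 30 with all TA arrays. A single array has no spread of its own, and it was assumed to vary like the other groups. With slide as a random block the counts over the 3 muscles fell to 27 higher and 14 lower, those in EDL to 7 and 5 and those in soleus to 7 and 2. The nuclear arrays of a muscle were close to each other, with a median SD of 0.11 to 0.15 at probes with values on every array, while the cytoplasmic arrays had 0.25 to 0.40. Averaging the 3 nuclear arrays of each muscle into 1 sample left 30 higher and 18 lower over the muscles, 3 and 4 in EDL, 6 and 7 in TA, and 1 and 1 in soleus.

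The gene furthest towards nuclei among those measured well in every group was Zfp445, a KRAB protein that keeps imprints together with Zfp57. It read 8.80, 8.96 and 8.83 in EDL nuclei and 6.98, 7.29 and 6.50 in EDL cytoplasm. In soleus it read 8.81, 8.64 and 8.88 against 6.80, 6.99 and 6.80, and in TA 7.98, 8.06 and 8.12 against 6.02, 5.79 and 6.18. All 9 nuclear arrays stood above all 9 cytoplasmic arrays, and the differences of 1.94, 1.92 and 2.06 were alike in the 3 muscles. Over the muscles Zfp445 was higher in nuclei by 1.97 ± 0.11 (SE, adjusted p = 1.09e-09). Zfp57, its partner at imprinted regions, had -0.33 ± 0.15 and was not called (adjusted p = 0.0585), while its second probe was called higher with 0.24 ± 0.10 (adjusted p = 0.0461).

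Zfp36, or tristetraprolin, binds AU-rich elements of mRNAs and brings about their decay. Its nuclear arrays read 7.91, 8.31 and 8.36 in EDL and 7.18, 7.38 and 7.62 in TA, while those of soleus read 8.68, 8.58 and 8.45. Its cytoplasmic arrays read 7.39, 6.61 and 7.18 in EDL and 7.54, 7.56 and 6.80 in soleus, but only 4.96 and 4.16 in TA, where the third had no value. The groups did not overlap in EDL or soleus. The difference was 1.74 ± 0.16 over the 3 muscles (adjusted p = 3.35e-07) and largest in TA, with 2.83 ± 0.31, where it rests on 2 cytoplasmic arrays, 1 of them well above background. The probe of Zfp36 holds the AU-rich heptamer TATTTAT, the core of the element that Zfp36 protein itself binds, which no other of the 170 probes holds and 1.03% of all probes do (searched on the transcript strand). The 30 bases around it, with the heptamer in capitals, are shown for that reason.
Zfp36, bases 2 to 31 of the probe, minus strand: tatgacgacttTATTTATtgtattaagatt

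The first 10 towards nuclei held 8 further genes. Zfp131, a BTB protein, had 1.66 ± 0.27 (adjusted p = 5.10e-05) and Zfp185 1.37 ± 0.24 (adjusted p = 9.60e-05). Zfp263, Zfp106, Zfp142, Zfp1, Zfp369 and Zfp61 lay between 1.35 and 1.18. Zfp106, an RNA-binding protein needed for the upkeep of motor nerves and muscle, read 8.67, 8.74 and 8.94 in soleus nuclei and 7.13, 7.37 and 6.70 in soleus cytoplasm. Its groups overlapped in TA, where TA cytoplasm 1 read 7.22 and the nuclei 7.20, 7.29 and 6.94. Zfp369 was supported by a second probe with 1.30 ± 0.16, and Zfp142 by one with 0.36 ± 0.11, whereas the second probe of Zfp61 had 0.13 ± 0.19 and was not called. Zfp341 was among the first 3 in EDL alone, with 1.61 ± 0.28 there and 1.03 ± 0.15 over the muscles at both of its probes (SE 0.14 at the second). Of the genes whose probes are shown above, Zfp58 had 1.15 ± 0.21, Zfp383 0.65 ± 0.16 and Zfp72 0.39 ± 0.10, all called higher, and Zfp111 had -0.35 ± 0.11, called lower.

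**Figure D2:**
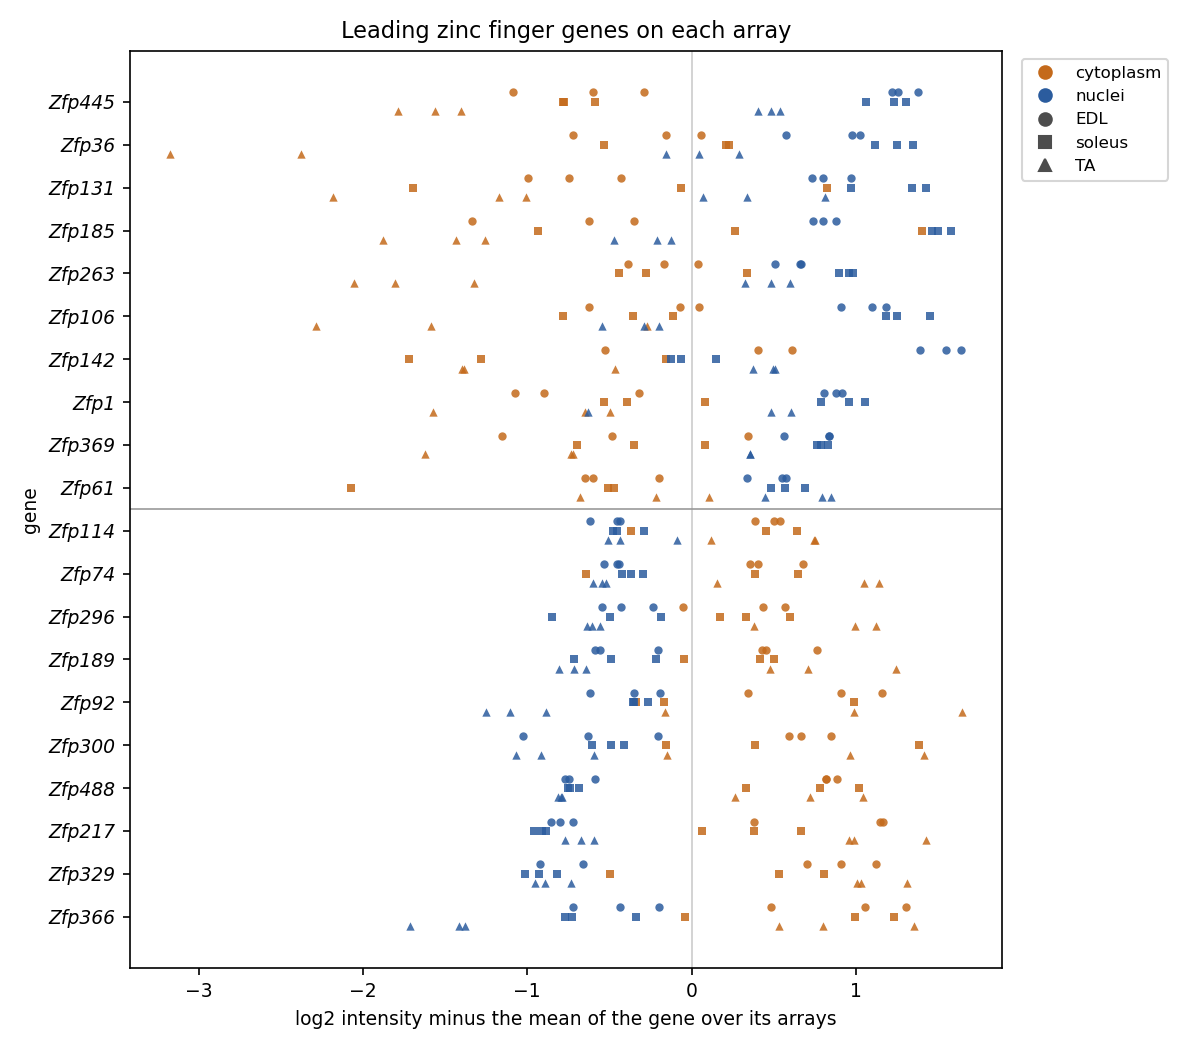
Level of the 10 genes furthest towards nuclei (upper rows) and the 10 furthest towards cytoplasm (lower rows) on each array, as log2 intensity minus the mean of that gene over its arrays. Colour gives the fraction and the symbol the muscle. For Zfp445 every nuclear array lies above every cytoplasmic array, while single soleus or TA arrays of Zfp106, Zfp1, Zfp92, Zfp74 and Zfp114 cross.

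Towards cytoplasm the largest difference belonged to the pseudogene Zfp133. Its cytoplasmic arrays read 7.73, 7.29 and 7.51 in EDL, 7.89, 7.56 and 7.40 in TA and 7.43, 6.80 and 7.28 in soleus, while no nuclear array was well above background. Cytoplasm was at least 11.4-fold above nuclei in EDL, at least 11.2-fold in soleus and at least 14.4-fold in TA (the measured difference over the 3 muscles was -3.62, adjusted p = 1.50e-11). Zfp473 had bounds of at least 3.18-fold in EDL and 2.69-fold in TA, and Zfp472 of at least 4.48-fold in EDL and 3.61-fold in soleus, both towards cytoplasm.

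Of genes measured well in every group, Zfp366 was first towards cytoplasm. It encodes a corepressor of nuclear receptors known from dendritic cells. Zfp366 read 9.84, 9.29 and 9.02 in TA cytoplasm and 7.07, 7.11 and 6.77 in TA nuclei, 8.97, 9.79 and 9.54 against 8.05, 7.77 and 8.29 in EDL, and 9.48, 8.45 and 9.72 against 7.72, 8.15 and 7.76 in soleus. The fractions did not overlap in any muscle, and the difference was -1.71 ± 0.18 (adjusted p = 6.83e-07). Markers of macrophages moved the same way. All 5 measured (Cd14, Cd68, Csf1r, Emr1, Lyz2) were lower in nuclei over the 3 muscles, where 29.4% of other mRNA genes were. Their median was -0.81 and none was without signal. In single muscles 2 of them were called lower in EDL, 1 in soleus and 3 in TA. Their summed intensity was 4390 to 5785 in EDL cytoplasm and 2734 to 2979 in EDL nuclei, 3036 to 5198 and 2884 to 3012 in soleus, and 4075 to 7149 and 2602 to 2843 in TA. The list marks macrophages and not dendritic cells, and the part of either cell type in the level of Zfp366 was not tested.

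Zfp488, which acts with Olig2 in oligodendrocytes, read 14.30, 14.37 and 14.31 in EDL cytoplasm and 12.74, 12.90 and 12.72 in EDL nuclei, with the same gap of -1.44 in soleus and -1.48 in TA. Over the muscles it had -1.48 ± 0.12 (adjusted p = 2.99e-08). Its second probe had too few values to be tested, so these values rest on a single probe. Whether that probe also reads other transcripts was not tested. The remaining genes of the first 10 were Zfp329, Zfp217, Zfp300, Zfp92, Zfp189, Zfp296, Zfp74 and Zfp114, between -1.63 and -0.84. Zfp189 read 7.67, 7.14 and 6.91 in TA cytoplasm and 5.62, 5.79 and 5.71 in TA nuclei, and differed by -1.10 ± 0.13 over the muscles.

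Probes of the same gene often disagreed. Of the 54 zinc finger genes with at least 2 probes tested, 15 (27.8%) had a probe called higher and another called lower in nuclei, against 12.7% of 3698 other mRNA genes. In 13 of the 15 it was the probe standing for the gene that was lower, in 1 (Zfp59) it was higher, and for Zfp467 it was not called. In 11 of them both probes were designed on the same accession. Of the first 10 genes towards cytoplasm 4 are among them (Zfp329, Zfp217, Zfp92 and Zfp74).

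For Zfp217, a corepressor subunit, the standing probe read 8.49, 9.28 and 9.26 in EDL cytoplasm and 7.26, 7.39 and 7.31 in EDL nuclei, and was lower in nuclei by -1.59 ± 0.13 (adjusted p = 3.37e-08) over the muscles. A second probe on the same accession, 1313 bases away on the genome, averaged 4.83 ± 0.30 (SD, n = 3) in EDL cytoplasm and 6.57 ± 0.08 in EDL nuclei and was higher by 1.94 ± 0.17 (adjusted p = 1.22e-07). Neither probe had overlapping fractions in any muscle. Zfp329 gave -1.63 ± 0.16 and, 1248 bases away, 1.63 ± 0.11. For Zfp26 the 2 probes lie 10011 bases apart. One gave -0.36 ± 0.16 (adjusted p = 0.0499), while the other was well above background on every nuclear array and on no cytoplasmic array, at least 5.23-fold higher in EDL nuclei, 5.43-fold in soleus and 3.65-fold in TA. Zfp64, whose standing probe reads a finger, had -0.71 ± 0.12 there and 0.90 ± 0.31 at a probe 9954 bases away. In Zfp457 it was the second probe, the finger probe shown above, that was higher, by 1.06 ± 0.12, and the standing probe that was lower, by -0.54 ± 0.09. The 2 linker probes of Zfp81 gave 0.18 ± 0.11, which was not called, and 0.71 ± 0.15. With the mean of a gene's probes in place of its brightest, 53 genes were higher and 24 lower. Counting all 206 tested probes, 97 were higher and 46 lower.

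**Figure D3:**
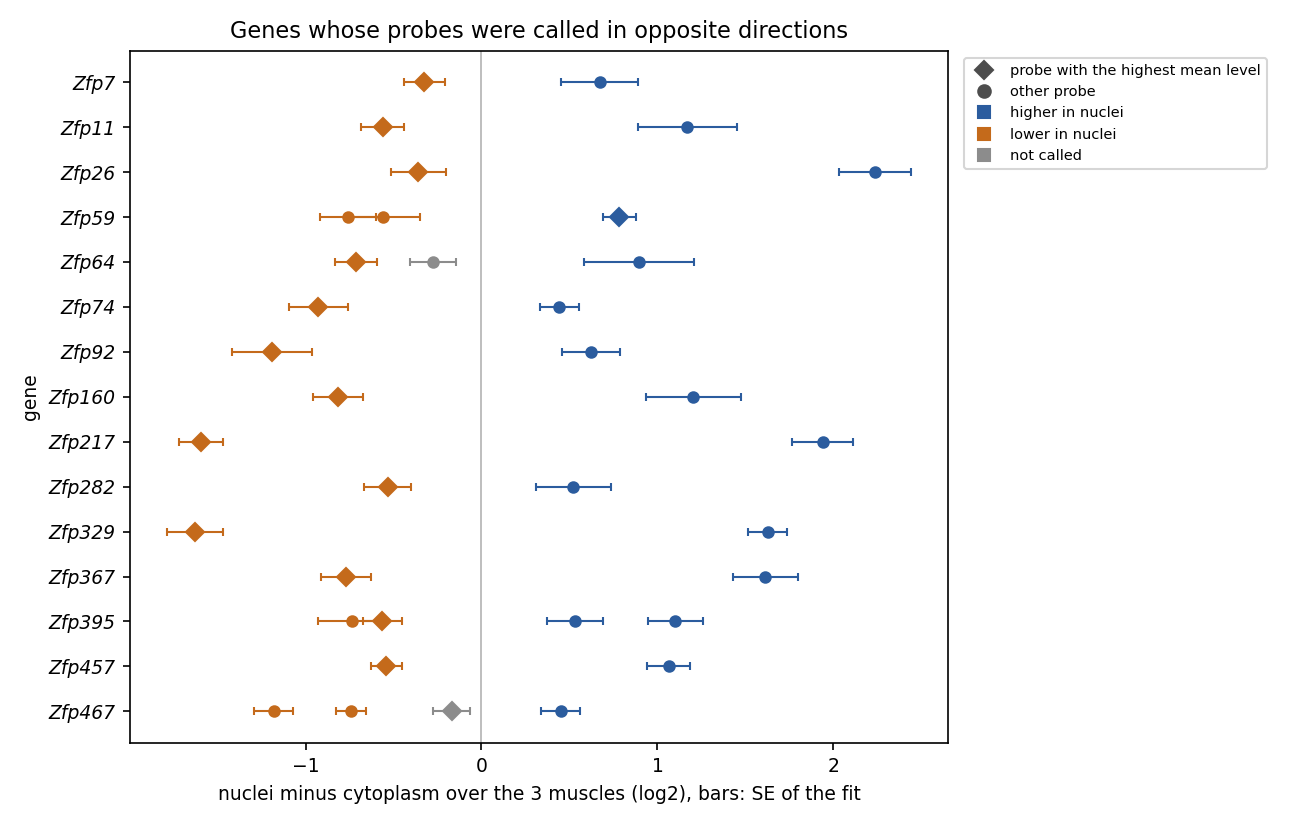
Nuclei minus cytoplasm over the 3 muscles (log2, bars give the SE of the fit) for each tested probe of the 15 genes that had probes called in opposite directions. Diamonds are the probes with the highest mean level, of which 13 lie on the cytoplasmic side, 1 (Zfp59) on the nuclear side and 1 (Zfp467) was not called.

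Probes called higher in nuclei were poorer in G and C. Their median GC content was 38.3%, against 43.3% for probes called lower and 43.3% for those not called. Over all probes it was 41.7%, 45.0% and 45.0%. Across the 139 genes GC content and difference gave a Spearman rho of -0.33, and -0.26 across all probes tested, which share arrays and scaling. In the 20 pairs of oppositely called probes of a gene, the nuclear probe had the lower GC content in 13 and an equal one in 2. The part of base composition in the differences was not tested. The genes were spread unevenly over the chromosomes, with 39 on chromosome 7, 18 on chromosome 13 and 17 on chromosome 17.

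The genes were also listed by role. The lists are too short to set against the background, which was 41.0% of the zinc finger genes, 39.7% of other mRNA genes and 31.5% of all probes called higher, and 26.6%, 29.4% and 38.8% called lower, and no list was tested. Of 6 proteins that act on RNA, 4 were higher in nuclei (Zfp36, Zfp106, Zfp207, Zfp326). Zfp326, part of a complex linking splicing to transcription, had 1.16 ± 0.21 over the muscles. It was at least 3.47-fold higher in soleus nuclei, as no soleus cytoplasm array was well above background. Zfp207, which binds the spindle checkpoint protein Bub3, had 0.85 ± 0.22 (adjusted p = 0.00283). Zfp346, a binder of double-stranded RNA, was the one lower, by -0.67 ± 0.16 (adjusted p = 0.0017), with 5.93, 6.05 and 5.38 in EDL cytoplasm and 4.97, 4.78 and 4.65 in EDL nuclei. Zfp318 had 0.19 ± 0.25 and was not called, although another of its probes was at least 7.18-fold higher in EDL nuclei and 5.74-fold in soleus nuclei, with no cytoplasmic array well above background there.

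Of 6 genes of imprinting and pluripotency, 3 were higher in nuclei (Zfp445, Zfp281, Zfp462) and 2 lower (Zfp296 and Zfp42), near the shares of all zinc finger genes. Zfp281, a repressor known from embryonic stem cells, read 7.54, 7.49 and 7.58 in soleus nuclei and 6.26, 6.64 and 5.94 in soleus cytoplasm. Zfp462 had 0.88 ± 0.16 and Zfp296 -1.01 ± 0.13. Zfp42, or Rex1, a marker of the pluripotent state, was dim and had -0.85 ± 0.28 (adjusted p = 0.0131) over the muscles. No soleus or TA nuclear array of Zfp42 was well above background, and the bound in TA was at least 2.51-fold towards cytoplasm.

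Of 8 regulators that bind promoters, 6 were higher in nuclei, beside the 41.0% of all zinc finger genes. Zfp143, an activator at many housekeeping promoters, had 1.19 ± 0.19 at one probe and 0.88 ± 0.16 at another, with TA nuclei at least 2.78-fold above TA cytoplasm. Zfp148 (ZBP-89) had 0.99 ± 0.13 and 1.80 ± 0.20 at its 2 probes. Zfp219, Zfp335, Zfp260 and Zfp161 lay between 0.76 and 0.46. Zfp384 had 0.19 ± 0.11 and was not called, and Zfp217 was lower at its standing probe only.

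Of 4 genes of mesenchyme, fat and muscle only Zfp238 was called over the muscles at its standing probe. Zfp238 (Zbtb18), a repressor of Id genes in myogenic cells, read 8.29, 8.15 and 8.10 in EDL nuclei and 7.56, 6.63 and 7.02 in EDL cytoplasm, did not overlap between fractions in any muscle and had 0.99 ± 0.12 (adjusted p = 3.14e-06). Zfp423, which commits cells to fat, had -0.16 ± 0.13 at its standing probe, whereas its other probes had 0.72 ± 0.13 and 0.63 ± 0.12 and were both called higher. In TA alone the standing probe was lower, by -0.81 ± 0.22 (adjusted p = 0.00557). Zfp467 and Zfp69 were not called at their standing probes. Other probes of Zfp467 were called in both directions, lower by -1.18 ± 0.11 and -0.74 ± 0.09 and higher by 0.45 ± 0.11.

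Among 5 genes of ubiquitin, SUMO and nerve signalling, 3 were higher in nuclei, again beside 41.0%. Zfp110 and Zfp369 bind the neurotrophin receptor p75, and had 1.00 ± 0.17 and 1.22 ± 0.20. Zfp91, a ubiquitin ligase, was at least 3.07-fold higher in EDL nuclei, where it read 4.74, 4.77 and 4.78. Zfp488 was lower, and Zfp451 was not called over the muscles.

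The difference between fractions changed with the muscle in 3 of the 139 genes tested (interaction of muscle and fraction, adjusted p under 0.05). That share is near the 1.96% of all probes that passed. Zfp59 read 6.34, 6.11 and 6.24 in soleus nuclei and 4.67, 4.71 and 5.15 in soleus cytoplasm, but 6.16, 6.19 and 6.31 against 6.04, 5.90 and 5.98 in TA. Nuclei exceeded cytoplasm by 1.39 ± 0.16 in soleus, by 0.71 ± 0.16 in EDL and by 0.25 ± 0.16 in TA (adjusted p of the interaction 0.0375). Its nuclear arrays spanned 6.11 to 6.34 over the muscles and its cytoplasmic arrays 4.67 to 6.04. The other 2 probes of Zfp59 were lower in nuclei over the muscles, by -0.76 ± 0.16 and -0.56 ± 0.21, the last of which was not called in the authors' normalized table (-0.18).

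Zfp263 behaved otherwise, with TA as the muscle apart. It read 5.70, 4.97 and 5.21 in TA cytoplasm, 7.06, 6.85 and 6.63 in EDL cytoplasm, and 7.53 to 7.69 in EDL and 7.34 to 7.62 in TA nuclei. Nuclei exceeded cytoplasm by 2.19 ± 0.22 in TA, by 1.07 ± 0.22 in soleus and by 0.78 ± 0.22 in EDL (adjusted p of the interaction 0.0474). Zfp451, a ligase of the SUMO pathway, was the only gene called in opposite directions in different muscles. It read 6.66 and 5.66 on the 2 EDL cytoplasm arrays with a value and 4.72, 4.79 and 4.97 in EDL nuclei, a difference of -1.34 ± 0.37 (adjusted p = 0.00971). In soleus it read 4.43 and 3.24 against 5.15, 4.95 and 4.97, a difference of 1.19 ± 0.37 (adjusted p = 0.021). TA cytoplasm was not well above background on any array (adjusted p of the interaction 0.0454). Zfp36 and Zfp148 came next, with adjusted p = 0.0599 and 0.0723, and did not pass. None of the 3 genes passed with the replicate block, under which 1 other gene did, or with slide as a random block.

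**Figure D4:**
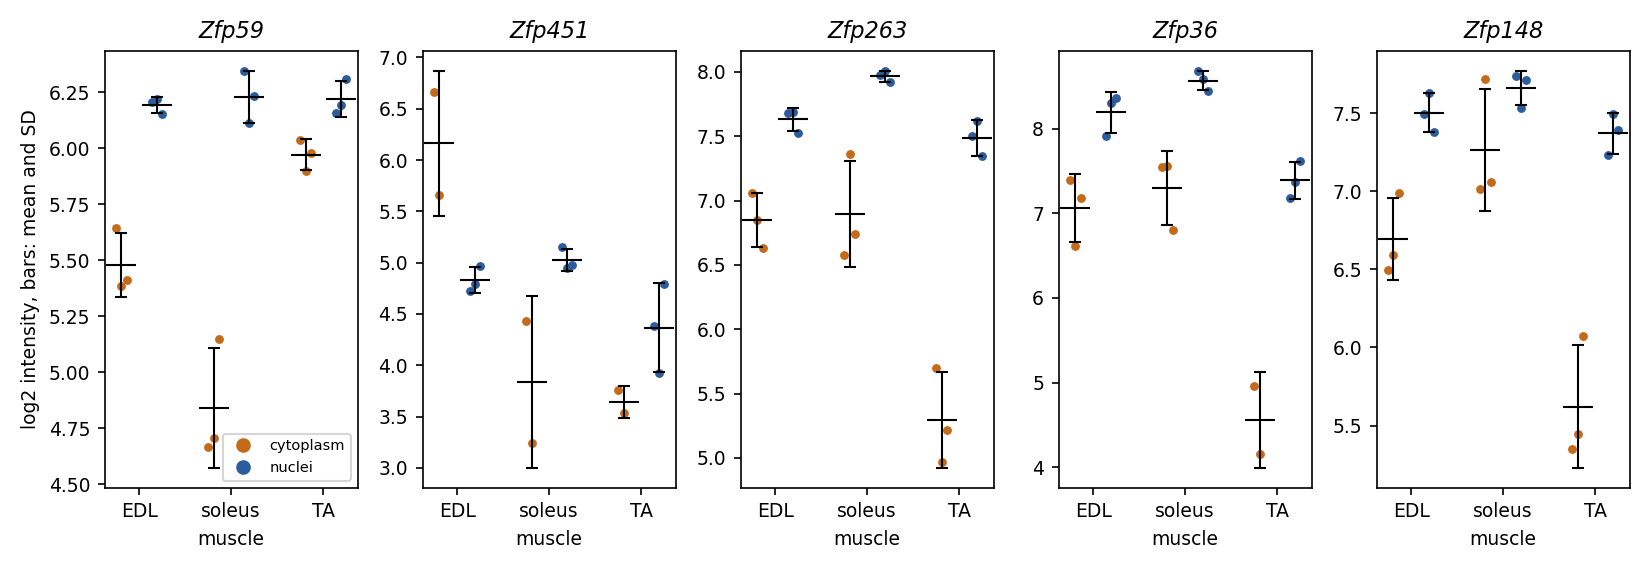
Log2 intensity on each array of the 5 genes with the smallest p of the interaction of muscle and fraction, by muscle and fraction, with horizontal bars for the mean and error bars for the SD of the arrays with a value (2 or 3). The nuclear arrays of Zfp59 lie between 6.11 and 6.34 in all muscles, and those of Zfp451 lie below the cytoplasmic arrays in EDL alone.

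Across genes the muscles resembled each other. The differences in EDL and soleus had a Pearson r of 0.88 over 140 genes, those in EDL and TA 0.82 over 141, and those in soleus and TA 0.83 over 139. The same values over all probes were 0.88, 0.84 and 0.78. These are correlations across genes, which are not independent replicates, and EDL and soleus pools shared mice and slides. The sign was the same in 120 of 140, 118 of 141 and 115 of 139 genes.

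**Figure D5:**
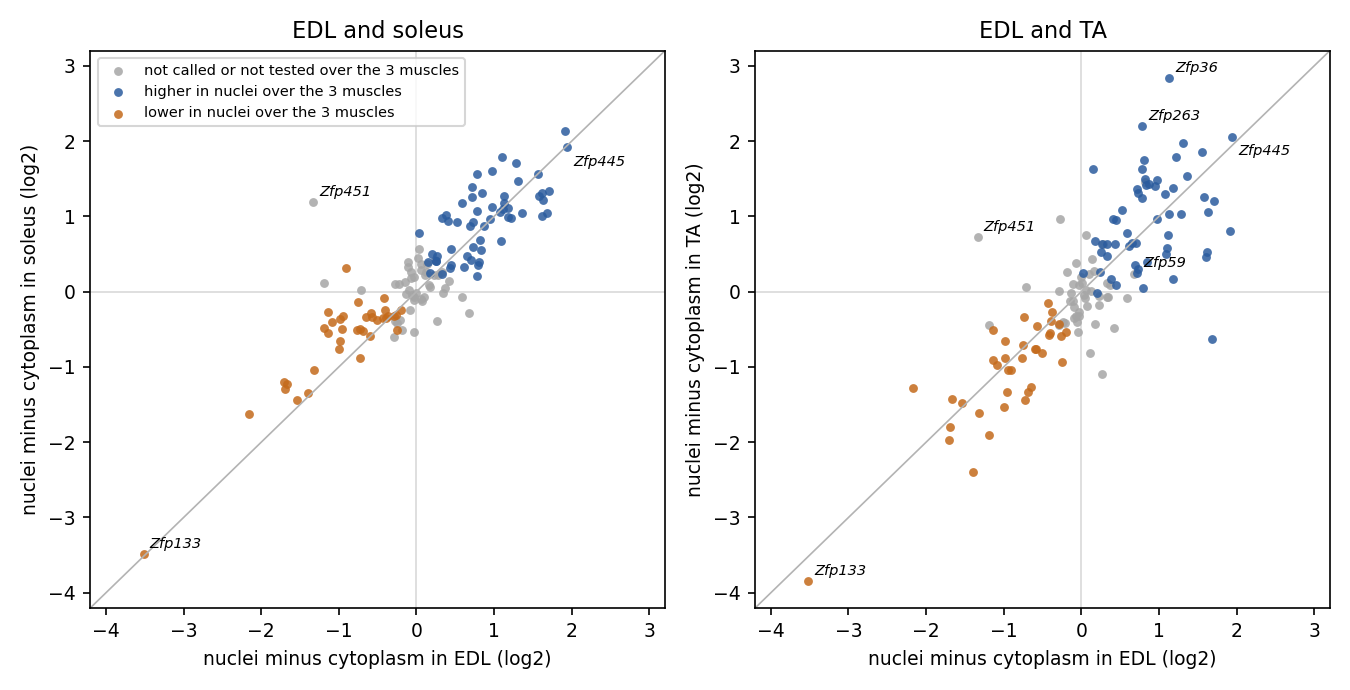
Nuclei minus cytoplasm (log2) of each zinc finger gene in EDL on the horizontal axis and in soleus (left) or TA (right) on the vertical axis, coloured by its call over the 3 muscles, with the line of equal values. Most genes lie near the line, Zfp451 lies in the upper left quadrant in both panels, and Zfp36 and Zfp263 lie above the line in TA.

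Levels averaged over both fractions were compared between muscles. Between soleus and EDL 2 genes were higher (1.43% of 140, against 2.38% of all probes) and 3 lower (2.14%, against 1.66%), where 4.04% of all probes differed either way. Zfp30 was higher in soleus by 0.68 ± 0.16 (adjusted p = 0.0209) and Zfp352 by 0.60 ± 0.16 (adjusted p = 0.0497). Zfp142 was lower by -1.38 ± 0.26, Zfp451 by -1.06 ± 0.26 and Zfp467 by -0.63 ± 0.13. Zfp142 read 9.10, 9.18 and 8.94 in EDL nuclei and 7.70, 7.42 and 7.49 in soleus nuclei, with no overlap. In cytoplasm the muscles overlapped, with 7.95, 7.02 and 8.16 in EDL and 7.39, 6.27 and 5.83 in soleus.

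Between TA and EDL, 8 genes were higher (5.67% of 141, against 14% of all probes) and 31 lower (22.0%, against 17.2%), where 31.1% of all probes differed either way. Zfp414 was higher in TA by 1.73 ± 0.18 (adjusted p = 2.36e-05), Zfp352 by 1.19 ± 0.16 and Zfp365 by 0.74 ± 0.25. Zfp36 was lower by -1.65 ± 0.21, Zfp451 by -1.49 ± 0.26 and Zfp9 by -1.41 ± 0.39. Apart from TA cytoplasm 1, TA was on other slides than EDL and was scanned on another day than either EDL fraction. With slide as a random block 1 gene was higher and 1 lower.

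Lastly, a list of 26 genes of the KRAB corepressor and of heterochromatin was taken, which is wider than the proteins that KRAB zinc fingers recruit. All 26 were tested and 17 were higher and 0 lower in nuclei over the muscles by limma, with a median of 0.62, where 39.7% of other mRNA genes were higher and where 41.0% of the zinc finger genes were. Setdb1 had 1.84 ± 0.17 and Chd3 1.90 ± 0.67. Trim28 itself had 0.23 ± 0.15 and was not called (adjusted p = 0.19), nor was Uhrf1 with -0.37 ± 0.22 or Cbx1 with -0.30 ± 0.18. In single muscles 9 were higher in EDL, 7 in soleus and 11 in TA, and Uhrf1 was lower in EDL. As a check of the fractions, all 5 nuclear RNAs measured (Malat1, Neat1, Xist, Meg3, Kcnq1ot1) were higher in nuclei over the muscles, with a median of 2.78. In TA alone 4 of them were called, and Xist was not (limma, adjusted p = 0.0862). All 10 myofiber markers were well above background on at least 1 array of every group and also higher in nuclei over the muscles. Their median was 0.70, and in single muscles 6 were called in EDL, 3 in soleus and 6 in TA. Also higher over the muscles were 6 of 6 endothelial, 4 of 5 fibroblast and 4 of 5 Schwann cell markers, where 39.7% of other mRNA genes were. Of 4 satellite cell markers 2 could be tested, and 1 was higher. The part of these cells in the values of the zinc finger genes was not tested.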

How the data were processed

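Myofiber pools were fractionated into nuclei and cytoplasm, and total RNA was labelled in one colour with a low-input kit and hybridised to Agilent arrays. The authors deposited the scanner output of the 18 arrays. Per the file headers, its intensity per spot had been corrected for background by Feature Extraction 10.7.3.1, and arrays had not been scaled to each other. The authors also deposited a table of linear intensity values, quantile-normalized by them, which holds 10 of the 265 probes and was fitted on the log2 scale as an alternative for these.

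Values were log2 of the deposited scanner intensity. A spot was treated as missing where the scanner software had not marked its signal as positive and significant, or had marked it as an outlier (0.263% to 0.568% of spots per array). The 3671 control spots were removed before quantile normalization between arrays, and spots with the same probe name were averaged. Signal was well above background on 58.4% to 71.4% of probes per array, and the number of arrays limits the precision. The means of the 6 groups were fitted with limma 3.58.1 in R 4.3.3 (eBayes, 12 residual and 3.49 prior degrees of freedom), with 2-sided moderated tests and Benjamini-Hochberg adjustment over all probes tested in a comparison, at a threshold of 0.05. A probe was tested with values on at least 2 of 3 arrays in each group involved. A gene was represented by its probe with the highest mean. Other software was Python 3.11.15, pandas 2.3.3, numpy 2.4.6, matplotlib 3.10.9 and the R package data.table, version 1.17.8.

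Members, gene lists and tests were chosen with earlier results of these data known. Named genes are the 10 furthest each way over the muscles and 3 each way in each muscle, past the threshold and well above background on at least 1 array of each group involved, the 5 with the smallest interaction p, 3 each way between muscles, and a list by role. Zfp37, Zfp236, Zfp133, Zfp472, Zfp473, the other genes with signal in 1 fraction, those whose probe sequences are printed and those with opposite probes were named after their values were seen. A comparison of protein domains was not made. Positions come from the array annotation (mm9) and current names from RefSeq.

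Replicate numbers mark shared mice in EDL and soleus by the labels, and only partly in TA. Deviations of same-numbered arrays correlated between -0.11 and 0.13 across 35528 probes. Where nothing names separate animals, p-values measure the spread between these samples. On simulated data with 35528 probes, 98.0% of changes of 2 (log2) and 82.0% of changes of 1 were recovered over the 3 muscles, and 89.0% to 91.0% and 28.0% to 33.0% within a muscle. The simulated probes had values on every array, and their noise was independent between arrays. It had the same spread in every group and no effect of slide. In the data the cytoplasmic arrays varied more than the nuclear ones and slides went with fraction, so these rates need not hold there.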

Additional observations from a re-analysis of the deposited data

Results flagged for a closer look

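For 3 of 139 zinc finger genes tested, nuclei minus cytoplasm changed between muscles by the test of the interaction of muscle and fraction. That share is near the 1.96% of all probes that passed. The count was 0 with slide as a random block and with scaling to the 75th percentile. The adjusted p was 0.0375 for Zfp59, 0.0474 for Zfp263 and 0.0454 for Zfp451. For Zfp59 the difference was 1.39 in soleus and 0.25 in TA, and the test of that pair gave -1.14 ± 0.23 (TA minus soleus, adjusted p = 0.0143). For Zfp263 TA exceeded EDL by 1.41 ± 0.31, with an adjusted p of 0.0638 for this pair alone. For Zfp451 soleus exceeded EDL by 2.52 ± 0.52, with an adjusted p of 0.186, and both cytoplasmic means of that pair rest on 2 arrays. No outlier test was made, as each group held 3 samples.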

How the results depend on the processing

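Counts are genes higher and lower in nuclei, against 57 and 37 over the 3 muscles, 37 and 27 in EDL, 38 and 13 in soleus, 35 and 30 in TA and 3 in the interaction. Scaling to the 75th percentile gave 46 and 47 over the muscles, 20 lower in soleus and 0 in the interaction. Without scaling there were 92 and 13 over the muscles, 65 and 9 in EDL, 111 and 3 in soleus, 61 in the interaction, 1 higher in soleus than EDL and 3 higher in TA than EDL. Requiring signal well above background left 24 lower over the muscles, 17 lower in EDL, 5 lower in soleus and 22 higher in TA. Without the filter on dim spots the interaction had 5 and soleus against EDL 1 higher. Pairing by replicate number, as a block, gave 54 and 36 over the muscles, 1 in the interaction, 1 higher in soleus than EDL, and 4 higher and 13 lower in TA than EDL, and moved no other count by over 1.5 times. Slide as a random block gave 27 and 14 over the muscles, 7 and 5 in EDL, 7 and 2 in soleus, 0 in the interaction, and 1 and 1 for TA against EDL. With nuclear arrays averaged to 1 sample per muscle there were 30 and 18 over the muscles, 3 and 4 in EDL, 1 and 1 in soleus, 6 and 7 in TA, and by limma 0 in the interaction, 0 and 0 in soleus against EDL and 0 and 0 in TA against EDL. The mean of a gene's probes gave 24 lower over the muscles and 17 lower in TA. Counting each probe gave 97 higher over the muscles, 65 in EDL, 64 in soleus, 59 in TA, 4 in soleus against EDL, and 14 higher and 50 lower in TA against EDL. Significance Analysis of Microarrays gave 6 and 13 in TA.

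Leaving out 1 array at a time gave 47 to 55 higher and 33 to 40 lower over the muscles, 27 to 40 and 20 to 29 in EDL, 21 to 45 and 8 to 22 in soleus, 25 to 38 and 23 to 36 in TA, 0 to 7 in the interaction, 0 to 5 and 2 to 4 for soleus against EDL, and 5 to 13 and 20 to 37 for TA against EDL. The interaction had 7 without TA cytoplasm 3, 1 without soleus cytoplasm 1, and 0 without any 1 nuclear array or without TA cytoplasm 2. TA against EDL had 20 lower without TA cytoplasm 2 and 13 higher without TA cytoplasm 1.

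The 20 genes furthest each way stayed called under 75th percentile scaling, normexp, the replicate block and averaged nuclear arrays. With slide as a random block 7 were no longer called (Zfp131, Zfp185, Zfp300, Zfp369, Zfp61, Zfp74 and Zfp92), and without scaling Zfp114 and Zfp74 were not. The cause was not tested. No called direction of these 20 genes reversed in these alternatives, all of which used the standing probe. The mean of a gene's probes was not followed gene by gene, and Zfp329, Zfp217, Zfp92 and Zfp74 have probes called in opposite directions. In the authors' normalized table all 9 probes with both values lay 0.34 to 0.45 further towards nuclei. Calls were gained by Zfp384 (0.59, against 0.19), a second probe of Zfp114 (0.37, against -0.00) and a probe of Zfp93 (0.38, against -0.02), and lost by a second probe of Zfp59 (-0.18, against -0.56).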
